A study of Mus musculus with 64 samples.

Results

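The cerebral cortex of heterozygous Q140 knock-in mice was compared with the cortex of wild-type (WT) mice, gene by gene. The comparison rested on 16 of the 64 RNA libraries of the study, 8 from Q140 mice and 8 from WT mice, and was chosen by the labelled tissue and genotype alone. Every gene of the deposited count table entered, 48795 in all, of which 18116 had enough reads in cortex to be tested. All mice were C57BL/6 and 6 months old, and each group held 4 females (F1 to F4) and 4 males (M1 to M4). The Q140 mice carried 1 knock-in copy of Htt with a lengthened CAG tract, and the WT mice carried none. A further 8 cortices labelled Q140 Polq+/- and 8 labelled Polq+/-, which lack 1 copy of the DNA polymerase theta gene Polq according to the labels, served as a second pair of groups, and striatum of the same mice as a second tissue. Each library came from 1 mouse, so that replicates were separate animals.

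Huntingtin is a large scaffold protein, and a lengthened run of glutamines near its start causes Huntington's disease. In the brain, spiny projection neurons of the striatum die first, and the cortical projection neurons that innervate them and supply them with the neurotrophin BDNF are also affected. In knock-in mice the lengthened tract sits in the mouse gene itself, so that the protein is made under its own promoter in every cell that normally makes it. The stretch of the normal mouse gene that holds the glutamine tract is shown first, because the genotype is named for that tract. The sequence of the knock-in copy is not shown. It lies in exon 1 of Htt, on the plus strand, and is given from the start codon with the glutamine codons in capitals (GENCODE M21 transcript, GRCm38, chr5:34761907-34762011).
Htt: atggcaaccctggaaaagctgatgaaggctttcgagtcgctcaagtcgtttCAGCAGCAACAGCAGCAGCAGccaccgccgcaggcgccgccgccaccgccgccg
The normal mouse tract holds 7 glutamine codons, 6 of them CAG and 1 CAA, at codons 18 to 24.

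Between 30.9 M and 39.4 M reads were counted in genes per library in the 2 cortical groups, with a median of 35.1 M. Within a group, log2 levels of any 2 libraries correlated at r = 0.9917 or more in Q140 cortex and 0.9913 or more in WT cortex, and no library stood apart. All 12 markers of cortical excitatory neurons were measured, with a summed level of 7860 to 8450 CPM in Q140 cortex and 8310 to 9020 CPM in WT cortex. No striatal sum was set beside these levels, so that they do not check the tissue label. CPM is the count scaled to a common library size after TMM normalisation. The count of Htt joins both alleles and so does not check the knock-in label. Htt (chr5:34761740-34912534) averaged 219 ± 13.2 CPM in Q140 cortex and 232 ± 5.47 CPM in WT cortex (SD, n = 8 each), with 7 of 8 Q140 mice below the WT median. Its log2 fold change was -0.09 (SE 0.0342, edgeR adjusted p = 0.355), and with the plate column as a further term it was -0.13 (adjusted p = 0.0314). Polq was 2.39 ± 0.374 CPM in Q140 cortex and 2.48 ± 0.52 CPM in WT cortex (log2 fold change -0.06, SE 0.204, edgeR adjusted p = 0.963).

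Few cortical genes were called, and most of those changed by little. Of 18116 genes tested, 63 passed edgeR's quasi-likelihood test at an adjusted p under 0.05 (0.348%), 26 of them higher (0.144%) and 37 lower (0.204%) in Q140 cortex. An unadjusted p under 0.05 was reached by 1770 genes (9.77%), and DESeq2 called 151. A gene that was not called is therefore not shown to be unchanged. The median log2 fold change of the called genes was 0.28 among the rises and -0.16 among the falls. A change beyond 0.5 on the log2 scale was seen in 6 rises and 1 fall, and beyond 1 in 3 genes. In 60 of the 63 all 8 Q140 mice lay beyond the WT median in the direction of the change, and in 15 the 2 groups did not overlap at all, against 0.121% of all tested genes. Both counts follow in part from the choice of the 63 by this same difference. The split between rises and falls depended on the scaling: with library totals alone 41 were higher and 30 lower, and on the deposited FPKM values 34 were higher and 24 lower. These scalings gave all 63 genes the same direction.

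The count itself was less stable than the directions. Leaving out Q140 M1 left 23 called genes and leaving out WT F3 left 39, and 21 genes were called in each of the 16 fits that left out 1 library. Rises numbered 26 with all mice, 8 without Q140 M1, 16 without Q140 M2 and 17 without WT M2, and falls numbered 37 with all mice, 15 without Q140 M1 and 19 without WT F3. The well addresses in the labels put 4 WT cortices and 0 Q140 cortices in plate column 5, and the 2 genotypes shared columns 6, 7 and 8. Within females they shared 2 columns, but within males none, with the Q140 males in columns 7 and 8 and the WT males in columns 5 and 6. With the plate column as a term 25 genes were called, 11 higher and 14 lower, 21 of them among the 63, and all 63 kept their direction. Of 41 called genes named here 17 were still called with that term, and the other 24 had edgeR adjusted p of 0.0634 (Tmem91) to 0.339 (Agmat). The names of Q140 and WT mice also shared no prefix, and the labels do not say what the prefix stands for.

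The gene with the smallest p was Abhd1 (ENSMUSG00000006638, chr5:30950066-30955091, plus strand), which encodes an alpha/beta hydrolase domain protein. It stood at 7.13, 6.84, 6.76 and 6.31 CPM in the Q140 females and at 6.07, 6.04, 5.63 and 5.73 CPM in the Q140 males, against 2.3, 2.84, 2.44 and 3.48 CPM in the WT females and 2.48, 3.05, 2.38 and 1.86 CPM in the WT males. No Q140 mouse fell to the level of any WT mouse. Abhd1 was 2.42-fold higher in Q140 cortex (log2 fold change 1.28, SE 0.127, edgeR adjusted p = 1.61e-07). GENCODE M21 lists it as a processed transcript that overlaps Preb on the other strand. Of the 63 called genes 38 overlap another gene model, and whether reads were counted by strand is not stated in the labels or headers, so that reads of such pairs cannot be told apart. Preb averaged 64.5 ± 1.51 CPM in Q140 cortex and 64.6 ± 2.45 CPM in WT cortex.

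The second gene was Gm2420 (ENSMUSG00000082305, chr5:32720330-32736194), a transcribed pseudogene with few reads, which may share reads with a copy elsewhere. It had 13, 24, 16 and 19 counts in the Q140 females and 17, 16, 17 and 12 in the Q140 males, against 3, 3, 4 and 1 counts in the WT females and 0, 2, 0 and 0 in the WT males. The sums were 134 counts over the Q140 libraries and 13 over the WT libraries, so that every Q140 cortex held more than any WT cortex (log2 fold change 3.26, SE 0.386, edgeR adjusted p = 2.29e-06). The other called gene under 1 CPM was Tmc3, of the transmembrane channel-like family, at 0.916 ± 0.179 CPM in Q140 cortex and 0.387 ± 0.189 CPM in WT cortex (SD, n = 8 each; log2 fold change 1.23, SE 0.231, edgeR adjusted p = 0.00498). With the plate column as a term its adjusted p was 0.0674. WT F4, at 0.823 CPM, was the only WT mouse to reach the Q140 range.

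Camk2n1 (chr4:138454314-138460123), an inhibitor of calcium/calmodulin-dependent kinase II, fell. It stood at 2540, 2450, 2610 and 2340 CPM in the Q140 females and 2310, 2190, 2290 and 2310 CPM in the Q140 males, against 3000, 3270, 2980 and 2660 CPM in the WT females and 3070, 2700, 2680 and 2920 CPM in the WT males. The highest Q140 mouse lay just below the lowest WT mouse, and the fitted level changed by -18.3% (log2 fold change -0.29, SE 0.0386, edgeR adjusted p = 8.02e-05). The orphan receptor gene Gpr153 (chr4:152274232-152285337) had 34.9, 30.6, 35.5 and 38.5 CPM in the Q140 females and 26.9, 31.9, 36.2 and 31.7 CPM in the Q140 males, against 48.7, 51.9, 46.8 and 43.8 CPM in the WT females and 39.0, 45.9, 37.9 and 42.1 CPM in the WT males. The groups touched at a single point, with Q140 F4 above WT M3, and all 8 Q140 mice lay below the WT median (log2 fold change -0.42, SE 0.0588, edgeR adjusted p = 0.000236).

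Enpp6 (chr8:46986887-47096762), a choline-specific glycerophosphodiesterase that marks newly forming oligodendrocytes, rose. It stood at 3.37, 4.08, 5.18 and 4.71 CPM in the Q140 females and 4.12, 5.1, 3.56 and 4.24 CPM in the Q140 males, against 3.12, 2.36, 2.2 and 3.34 CPM in the WT females and 1.91, 2.13, 2.73 and 2.45 CPM in the WT males. The lowest Q140 mouse, at 3.37 CPM, was just above the highest WT mouse, at 3.34 CPM. The rise was 1.69-fold (log2 fold change 0.76, SE 0.115, edgeR adjusted p = 0.000269). Enpp6 overlaps other gene models on the opposite strand.

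**Figure D1:**
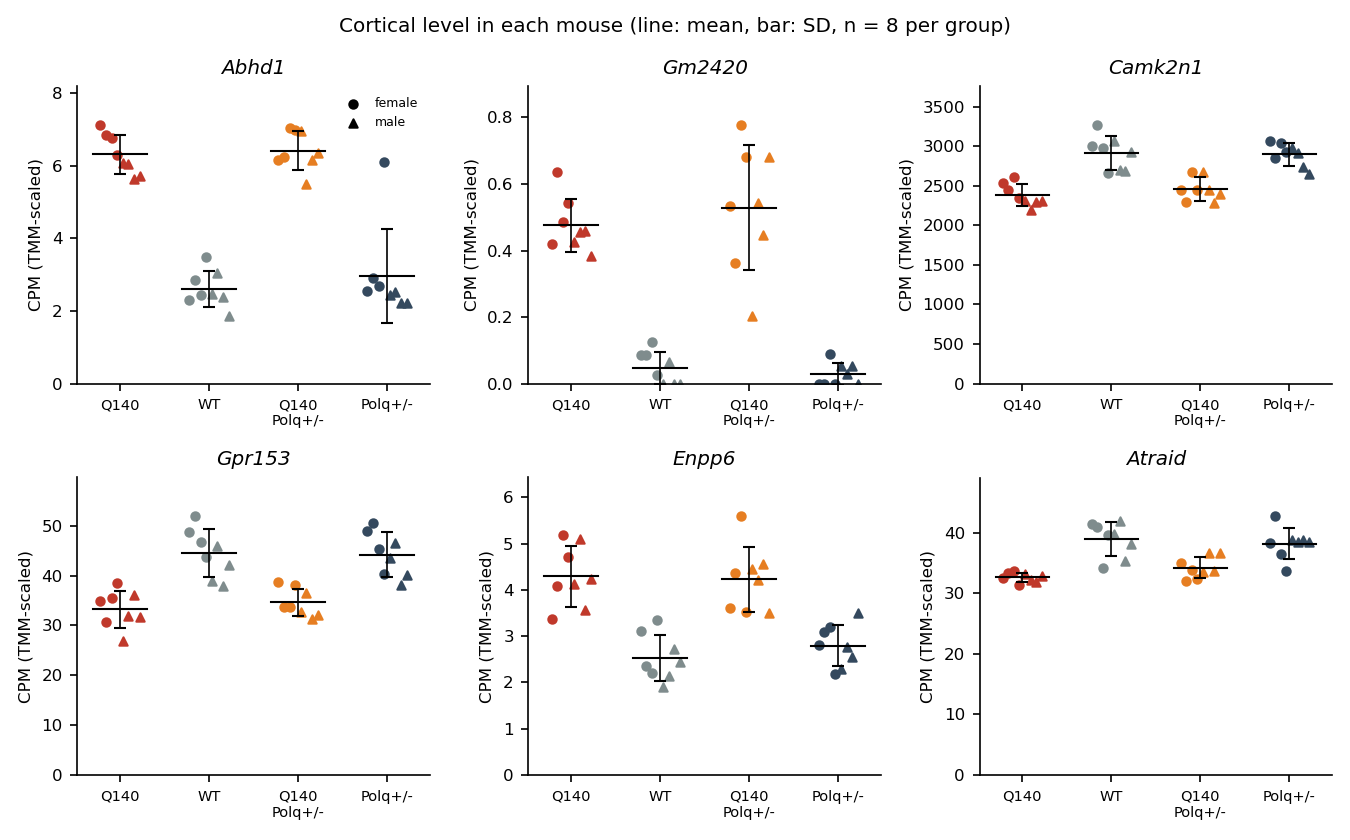
Level in every cortex of the genes with the smallest p and of Atraid, as TMM-scaled CPM, for Q140, WT, Q140 Polq+/- and Polq+/- mice (circles female, triangles male; line and bar, mean and SD, n = 8 each). Abhd1 lies at 5.63 to 7.13 CPM in Q140 cortex and at 1.86 to 3.48 CPM in WT cortex, and 1 Polq+/- mouse lies at 6.1 CPM.

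The upstream windows of the called genes with a RefSeq promoter entry and the smallest p outside the region around Htt are shown as examples of the DNA in front of genes that moved in opposite directions. Each holds the 250 bases before the annotated start, in the direction of the gene, from the RefSeq table on GRCm38.p6. Gpr153 is at chr4:152273862-152274111 on the plus strand, Enpp6 at chr8:46986637-46986886 on the plus strand and Camkk2 at chr5:122779411-122779660 on the minus strand.
Gpr153: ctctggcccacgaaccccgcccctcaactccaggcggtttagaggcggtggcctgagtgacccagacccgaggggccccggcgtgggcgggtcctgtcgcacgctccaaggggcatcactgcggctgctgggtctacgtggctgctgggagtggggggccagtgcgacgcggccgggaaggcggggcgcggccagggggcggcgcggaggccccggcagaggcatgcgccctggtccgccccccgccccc
Enpp6: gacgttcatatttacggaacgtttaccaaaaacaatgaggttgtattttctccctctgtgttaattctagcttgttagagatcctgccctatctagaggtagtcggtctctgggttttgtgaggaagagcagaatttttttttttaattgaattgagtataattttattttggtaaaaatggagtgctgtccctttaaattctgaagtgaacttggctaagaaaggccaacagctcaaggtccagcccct
Camkk2: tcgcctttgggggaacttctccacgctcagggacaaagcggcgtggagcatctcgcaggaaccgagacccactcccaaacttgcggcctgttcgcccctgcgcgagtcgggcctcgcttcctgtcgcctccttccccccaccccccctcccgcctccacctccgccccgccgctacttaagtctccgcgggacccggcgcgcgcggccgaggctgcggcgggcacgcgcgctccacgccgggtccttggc
Both strands were searched for 5 motifs of factors that answer to neuronal activity or bind E-boxes, and capitals would mark a match. The cAMP response element TGACGTCA occurs in 1.55% of the 32851 windows of that length in the table, its core TGACG (which the full element contains) in 17.8%, the E-box CACGTG in 6.02%, the Egr motif GCGGGGGCG in 2.57% and the CArG box in 1.47%. These letters are in none of the 3 windows shown.

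Called genes were frequent on the side of chromosome 5 before Htt. Within 10 Mb of the Htt start 193 genes were tested and 7 were called (3.63%, against 0.348% of all genes), 6 higher and 1 lower. All 7 lay before Htt, at distances of -4.05 to -2.04 Mb. A division by distance chosen after these positions were seen put 7 of 97 tested genes (7.22%) in the last 5 Mb before Htt, 0 of 33 in the 5 Mb before that and 0 of 63 in the 10 Mb from Htt onwards. On the rest of chromosome 5 there were 2 called genes of 1034 (0.193%), and on the other chromosomes 54 of 16889 (0.32%). The region around a targeted gene is inherited with it, so that an effect of the lengthened tract and one of linked DNA cannot be told apart in this design.

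Beside Abhd1 and Gm2420, 4 genes of the region rose. Cgref1, an EF-hand protein named for growth regulation, stood at 10.4 ± 1.0 CPM in Q140 cortex and 8.22 ± 0.852 CPM in WT cortex (SD, n = 8 each; log2 fold change 0.34, SE 0.0648, edgeR adjusted p = 0.00658), and its adjusted p was 0.0638 with the plate column as a term. The mitochondrial ribosomal protein gene Mrpl33 rose by 0.25 on the log2 scale (SE 0.0549, edgeR adjusted p = 0.0238), the vitamin transporter gene Slc5a6 by 0.18 (SE 0.0381, adjusted p = 0.0171) and Dpysl5, a collapsin response mediator of neurite growth, by 0.18 (SE 0.0426, adjusted p = 0.0431). With the plate column as a term Slc5a6 and Dpysl5 were no longer called (adjusted p = 0.113 and 0.218). The fall was Atraid, a gene induced by retinoic acid, at 32.6 ± 0.769 CPM in Q140 cortex and 38.9 ± 2.87 CPM in WT cortex (log2 fold change -0.26, SE 0.04, edgeR adjusted p = 0.000478), with no overlap between the groups. Slc5a6 and Atraid overlap on opposite strands and moved in opposite directions.

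**Figure D2:**
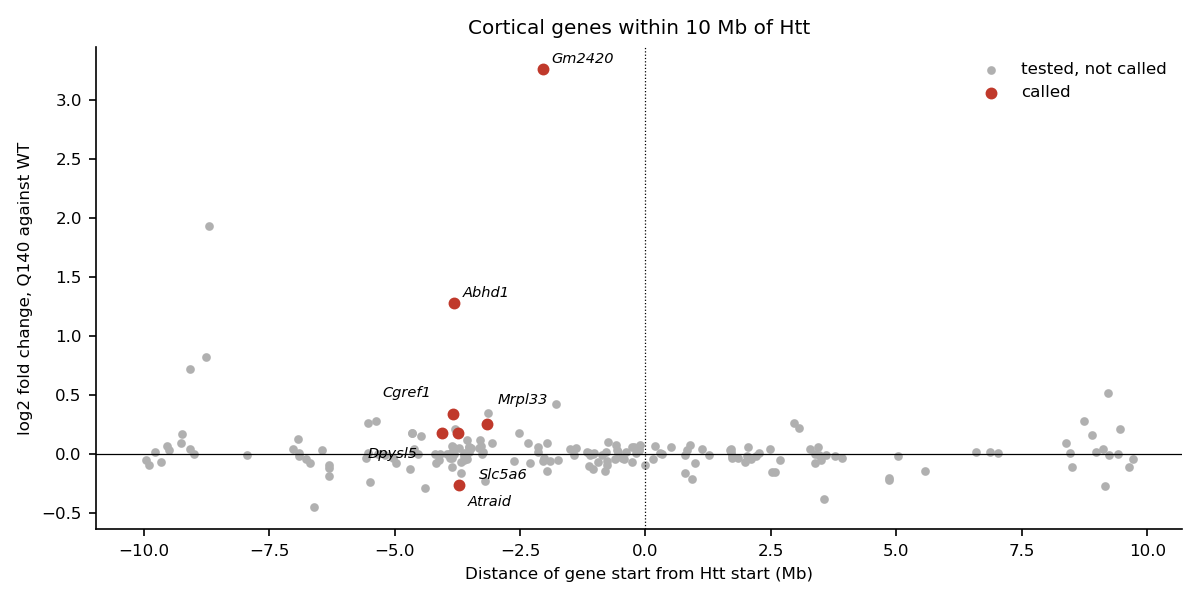
Log2 fold change in cortex (Q140 against WT) of each of 193 tested genes within 10 Mb of Htt, against the distance of its start from the Htt start in Mb; red points were called. The 7 called genes lie at -4.05 to -2.04 Mb.

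Away from this region 56 genes were called, 20 higher and 36 lower. The rises there were led, after Tmc3 and Enpp6, by Anln, the actin-binding scaffold anillin, which holds septins in myelin. It stood at 14.6 to 22.3 CPM in Q140 cortex (median 17.7) and 9.35 to 14.5 CPM in WT cortex (median 12.9), and the groups met without overlapping (log2 fold change 0.52, SE 0.0923, edgeR adjusted p = 0.00498). With the plate column as a term its adjusted p was 0.0638. The secreted matrix protein gene Adamtsl1 stood at 4.03 to 6.38 CPM in Q140 cortex (median 5.04) and 2.9 to 3.86 CPM in WT cortex (median 3.53), again without overlap (log2 fold change 0.51, SE 0.0965, edgeR adjusted p = 0.00498). Smoc1, a secreted calcium-binding matrix protein, and Chdh, the choline dehydrogenase of mitochondria, each had a log2 fold change of 0.47, and Apod, a lipid-carrying lipocalin, had 0.40. With the plate column as a term Chdh was no longer called (edgeR adjusted p = 0.0689), while Smoc1 and Apod were.

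The other rises in the ranking by size were smaller. Arhgap6, a GTPase-activating protein on the X chromosome, reached 0.36 on the log2 scale and did not overlap between groups (3.76 to 4.42 CPM in Q140 cortex and 2.96 to 3.53 CPM in WT cortex). The tetraspanin gene Cd82 reached 0.31 and the lipid transporter gene Abca8a 0.30. Carhsp1, a calcium-regulated RNA-binding protein, reached 0.26, the sterol sulfotransferase gene Sult2b1 0.24 and Rspo3, a secreted enhancer of Wnt signalling, 0.22. Of these, Abca8a, Sult2b1 and Rspo3 had adjusted p of 0.0477, 0.0457 and 0.0499 by edgeR, close to the threshold. With the plate column as a term Cd82 was still called (edgeR adjusted p = 0.0167). Arhgap6, Abca8a, Carhsp1, Sult2b1 and Rspo3 were not called with that term (adjusted p = 0.135, 0.128, 0.0674, 0.162 and 0.174). Of the 16 fits that left out 1 library, Sult2b1 and Rspo3 were called in 3, Abca8a in 4, Carhsp1 in 7, Apod in 9, and Arhgap6 and Cd82 in 15.

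The largest fall was that of Plk5, a polo-like kinase of neurons, which stood at 17.9 to 20.9 CPM in Q140 cortex (median 19.8) and 23.1 to 39.1 CPM in WT cortex (median 26.1), without overlap (log2 fold change -0.50, SE 0.094, edgeR adjusted p = 0.00947). With the plate column as a term Plk5 was at -0.47 and no longer called (adjusted p = 0.0706). The agmatinase gene Agmat followed at -0.46 (edgeR adjusted p = 0.0356) and Ddit4l, an inhibitor of mTOR signalling, at -0.45 (adjusted p = 0.0238). Ddit4l stood at 34.4 to 40 CPM in Q140 cortex and 38.6 to 63.7 CPM in WT cortex, a narrow band beside a wide one, and its adjusted p was 0.174 with the plate column as a term. Proser2 reached -0.37 and Tmem91, a membrane protein gene, -0.32, both without overlap between the groups. With the plate column as a term neither was called (edgeR adjusted p = 0.117 and 0.0634).

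Lingo1, a partner of the Nogo receptor that restrains axon growth and myelination, fell to 463 ± 37.3 CPM in Q140 cortex, against 542 ± 23.0 CPM in WT cortex (SD, n = 8 each; log2 fold change -0.22, SE 0.0393, edgeR adjusted p = 0.00386). Fbxw7, the substrate receptor of a ubiquitin ligase, fell by 0.20 on the log2 scale and Ddit3, the stress-response transcription factor CHOP, by 0.21 (edgeR adjusted p = 0.0183 and 0.00448). Susd5 and the alpha-tubulin gene Tuba8 had log2 fold changes of -0.26 and -0.24 (edgeR adjusted p = 0.024 and 0.0367). With the plate column as a term Lingo1 and Ddit3 were still called, but Fbxw7, Susd5 and Tuba8 were not (adjusted p = 0.0881, 0.117 and 0.214). Of the 16 fits that left out 1 library, Agmat and Tuba8 were called in 6, Ddit4l and Susd5 in 10, Tmem91 in 14 and Fbxw7 in 15. Plk5, Proser2, Lingo1 and Ddit3 were called in all 16.

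Camkk2, the kinase that activates other calmodulin kinases, fell by 0.16 on the log2 scale (SE 0.0263, edgeR adjusted p = 0.00127), and Camk2a, the main catalytic subunit of kinase II in forebrain, by 0.12 (SE 0.027, adjusted p = 0.0233). The calcium pump gene Atp2b2 fell by 0.13 (SE 0.0264, adjusted p = 0.0179) and Rgs4, which shortens G protein signals and binds calmodulin, by 0.15 (SE 0.0294, adjusted p = 0.00913). With the plate column as a term Camk2a and Rgs4 were no longer called (adjusted p = 0.11 and 0.13). Camk2b, another catalytic subunit of kinase II, had a log2 fold change of -0.03 (adjusted p = 0.674) and Camk2n2, the second inhibitor of that kinase, of -0.01 (adjusted p = 0.986). Atp2b2, Rgs4, Camk2b and Camk2n2 were chosen after their values were seen. No list of calmodulin or calmodulin kinase genes was counted, so that these genes give no share called.

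R3hdm1 and Arpp21 were among the 10 genes above 1 CPM with the smallest p, and both host a copy of the neuronal microRNA miR-128, on the same strand. The mature sequence is printed because it is the same from both hosts (RefSeq, GRCm38.p6, chr1:128202404-128202424 on the plus strand in R3hdm1 and chr9:112118644-112118664 on the minus strand in Arpp21). Capitals in the mature line mark the seed, bases 2 to 8, and capitals in the hairpin lines mark the mature sequence.
mmu-miR-128-3p: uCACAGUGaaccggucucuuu
Mir128-1 hairpin: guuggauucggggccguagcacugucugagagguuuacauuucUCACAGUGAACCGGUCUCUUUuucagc
Mir128-2 hairpin: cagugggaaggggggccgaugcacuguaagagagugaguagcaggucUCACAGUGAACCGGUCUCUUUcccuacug
R3hdm1, named for its R3H domain, was at 542 ± 25.5 CPM in Q140 cortex and 614 ± 29.6 CPM in WT cortex (SD, n = 8 each; log2 fold change -0.18, SE 0.0289, edgeR adjusted p = 0.000634). Arpp21, a phosphoprotein regulated by cAMP that binds calmodulin and RNA, was at 367 ± 12.7 CPM in Q140 cortex and 414 ± 23.3 CPM in WT cortex (log2 fold change -0.17, SE 0.029, edgeR adjusted p = 0.00109). All 8 Q140 mice lay below the WT median for both hosts. The libraries count long RNA, and miR-128 itself was not measured here.

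Lists of marker and pathway genes, 46 in all with 647 tested members, held 9 of the 63 called genes (1.39% of the members, against 0.348% of all tested genes), and 38 lists held none. The lists were chosen with earlier results of these data known, so that this share is not independent evidence. Over all tested genes the median log2 fold change was 0.00104. In the 38 lists without a call, 70 of 551 genes had an unadjusted p under 0.05 (12.7%, against 9.77% of all tested genes). DESeq2, which called 151 genes in all where edgeR called 63, called 8 of these 551: Lamp5, Ctgf, Slc1a2, Kcnj9, Kcnj10, Cartpt, Nrn1 and Cpne9. Of 12 cortical excitatory neuron markers 1 was called (8.33%), Camk2a, lower, and the list's median was -0.02, with 5 members above 0 and 7 below. Neurogranin (Nrgn), a calmodulin-binding protein of dendrites, was at 1900 ± 71 CPM in Q140 cortex and 2040 ± 94 CPM in WT cortex without passing (log2 fold change -0.10, SE 0.0262, edgeR adjusted p = 0.0768). Neurod2, a transcription factor of these neurons, lay on the other side of 0 (log2 fold change 0.13, SE 0.0466, edgeR adjusted p = 0.274). Of 12 upper-layer markers 0 were called (median -0.07), with Lamp5 at -0.20 (edgeR adjusted p = 0.117), of 18 deep-layer markers 0 (median 0.05), with Ctgf at 0.49 (adjusted p = 0.129), and of 16 interneuron markers 0 (median -0.02). In bulk tissue fewer cells of a type and less RNA per cell cannot be told apart.

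Genes that mark the striatal change in Huntington's disease models were called in cortex in small numbers, given here beside the 0.348% of all tested genes. Of 25 tested spiny neuron markers 1 was called (4%), Arpp21, lower, and the list's median was -0.05 in cortex, against -0.60 in striatum of the same mice. Of 23 genes known as reduced in such models Arpp21 and Ddit4l were called (8.7%), both lower, with a list median of -0.05 in cortex and -0.67 in striatum. The inositol trisphosphate receptor gene Itpr1 stood at -0.09 (edgeR adjusted p = 0.241) and Ppp1r1b, the dopamine-regulated phosphatase inhibitor, at -0.11 (adjusted p = 0.306). The dopamine receptor Drd1 lay on the other side, at 0.21 (edgeR adjusted p = 0.259). Of 15 genes known as raised, Tmc3 was called higher and Ipcef1 lower (13.3%), with a list median of -0.02 in cortex and 0.98 in striatum. Their members lay on both sides of 0 in cortex, 6 above and 9 below, with Islr2 at 0.37 and the lipase gene Lipg at -0.23 (edgeR adjusted p = 0.117 and 0.247). The members were placed in these lists with results of these mice known, so that neither the shares called nor the directions are independent evidence. Arpp21 is counted in both the spiny neuron list and the list of reduced genes.

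Of 23 synaptic vesicle genes 1 was called (4.35%, against 0.348% of all tested genes), the membrane fusion protein Snap25, at 3250 ± 148 CPM in Q140 cortex and 3500 ± 76.8 CPM in WT cortex (SD, n = 8 each; log2 fold change -0.11, SE 0.0242, edgeR adjusted p = 0.0335; 0.119 with the plate column as a term), and the priming factor Unc13a stood at -0.09 (adjusted p = 0.0966). In 19 of these 23 genes the fitted change was below 0, as in 26 of 30 potassium channel genes, while 8929 of all 18116 genes were below 0. These shifts were small, with list medians of -0.02 and -0.03, against 0.00104 over all tested genes. Of the potassium channel genes 0 were called, with the G protein-gated channel Kcnj9 at -0.08 (adjusted p = 0.113) and the glial channel Kcnj10 at -0.19 (adjusted p = 0.126). None of 22 glutamate receptor genes (Grin2a at -0.12, adjusted p = 0.156) or of 14 GABA receptor genes (Gabrd at -0.13, adjusted p = 0.113, and Gabbr2 at -0.10, adjusted p = 0.131) was called by edgeR, where 4 and 3 of them had an unadjusted p under 0.05.

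Of 9 tested neurotrophin genes 1 was called (11.1%, against 0.348% of all tested genes), Sort1, a sorting receptor for BDNF, lower by 0.08 (SE 0.0171, edgeR adjusted p = 0.0183; 0.117 with the plate column as a term), and the BDNF receptor gene Ntrk2 stood at -0.13 (adjusted p = 0.411). Of 13 huntingtin partners 0 were called, with the palmitoyltransferase Zdhhc17 at -0.06 and the endocytic adaptor Pacsin1 at -0.05 (adjusted p = 0.337 and 0.353). Of 22 immediate early genes 0 were called, 19 lay below 0 (list median -0.12), and Homer1 and Nptx2 had log2 fold changes of -0.27 and -0.38 (adjusted p = 0.276 and 0.172). Their summed level varied widely within both groups, from 1520 to 3170 CPM in Q140 cortex and from 1200 to 3290 CPM in WT cortex. Of 16 tested neuropeptide genes 0 were called (Cartpt at -0.44, adjusted p = 0.127).

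Of 12 oligodendrocyte precursor genes 1 was called, Enpp6 (8.33%, against 0.348% of all tested genes), and the list median was 0.03, with 8 members above 0 and 4 below. Among those with the smallest p, the growth factor receptor Pdgfra stood at 0.08, Bmp4 at 0.24 and the transcription factor Olig1 at 0.10 (edgeR adjusted p = 0.449, 0.46 and 0.496). Of 15 myelin genes 0 were called, and members lay on both sides, with Ugt8a at -0.18 and Mog at 0.18 (adjusted p = 0.176 and 0.456). The summed level of the precursor list was 631 to 691 CPM in Q140 cortex and 625 to 717 CPM in WT cortex. Of 15 astrocyte genes 0 were called, with the glutamate transporter Slc1a2 at -0.10 (adjusted p = 0.0737), and 0 of 8 reactive astrocyte genes and 0 of 15 microglial genes were.

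Of 15 endoplasmic reticulum stress genes Ddit3 was called (6.67%, against 0.348% of all tested genes), lower, and Calr and Hspa5 stood at -0.12 and -0.16 (edgeR adjusted p = 0.483 and 0.581). Of 15 mismatch repair genes 0 were called, with 13 above 0 (list median 0.04). Of 20 double-strand break repair genes 0 were called, with Parp1 at 0.09 (adjusted p = 0.188). Of 24 ribosomal protein genes 22 lay above 0 (list median 0.04), and all 13 mitochondrially encoded respiratory chain genes lay below 0 (list median -0.06), in both cases without a call. No member of the cholesterol, heat shock, p53, nuclear respiratory chain, interferon, proteasome, autophagy, polycomb, protocadherin, developmental transcription factor or circadian lists was called by edgeR, nor of the copine list, where Cpne9 stood at -0.15 (adjusted p = 0.0865).

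Markers of tissue beside the cortex differed between some mice without being called. All 6 tested blood genes lay above 0, with a list median of 1.55, and their summed level was 3.91 to 69.8 CPM in Q140 cortex (median 12.7) and 3.26 to 26.9 CPM in WT cortex (median 7.97). The haemoglobin genes Hba-a2 and Hbb-bs and the haem synthesis gene Alas2 had edgeR adjusted p of 0.343, 0.499 and 0.458. All 10 meningeal fibroblast genes lay above 0 as well (list median 0.27, summed level 467 to 739 CPM in Q140 cortex and 361 to 680 CPM in WT cortex), among them Slc22a6 at 0.38 and Igf2 at 0.30 (adjusted p = 0.355 and 0.506). The 6 tested cerebellar granule cell genes lay above 0 too (list median 0.19, summed level 42.0 to 55.3 CPM in Q140 cortex and 39.1 to 50.3 CPM in WT cortex), with Cbln3 at 0.62 (adjusted p = 0.308). Of the hippocampal list 0 genes were called, with neuritin (Nrn1), an activity-regulated promoter of neurite growth, at -0.19 (adjusted p = 0.0563), and 0 of the thalamic, cholinergic, endothelial and mural lists were. Choroid plexus genes summed to 4.27 to 8.13 CPM in Q140 cortex and 3.12 to 6.4 CPM in WT cortex. The part of these tissues in the called genes was not tested.

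**Figure D3:**
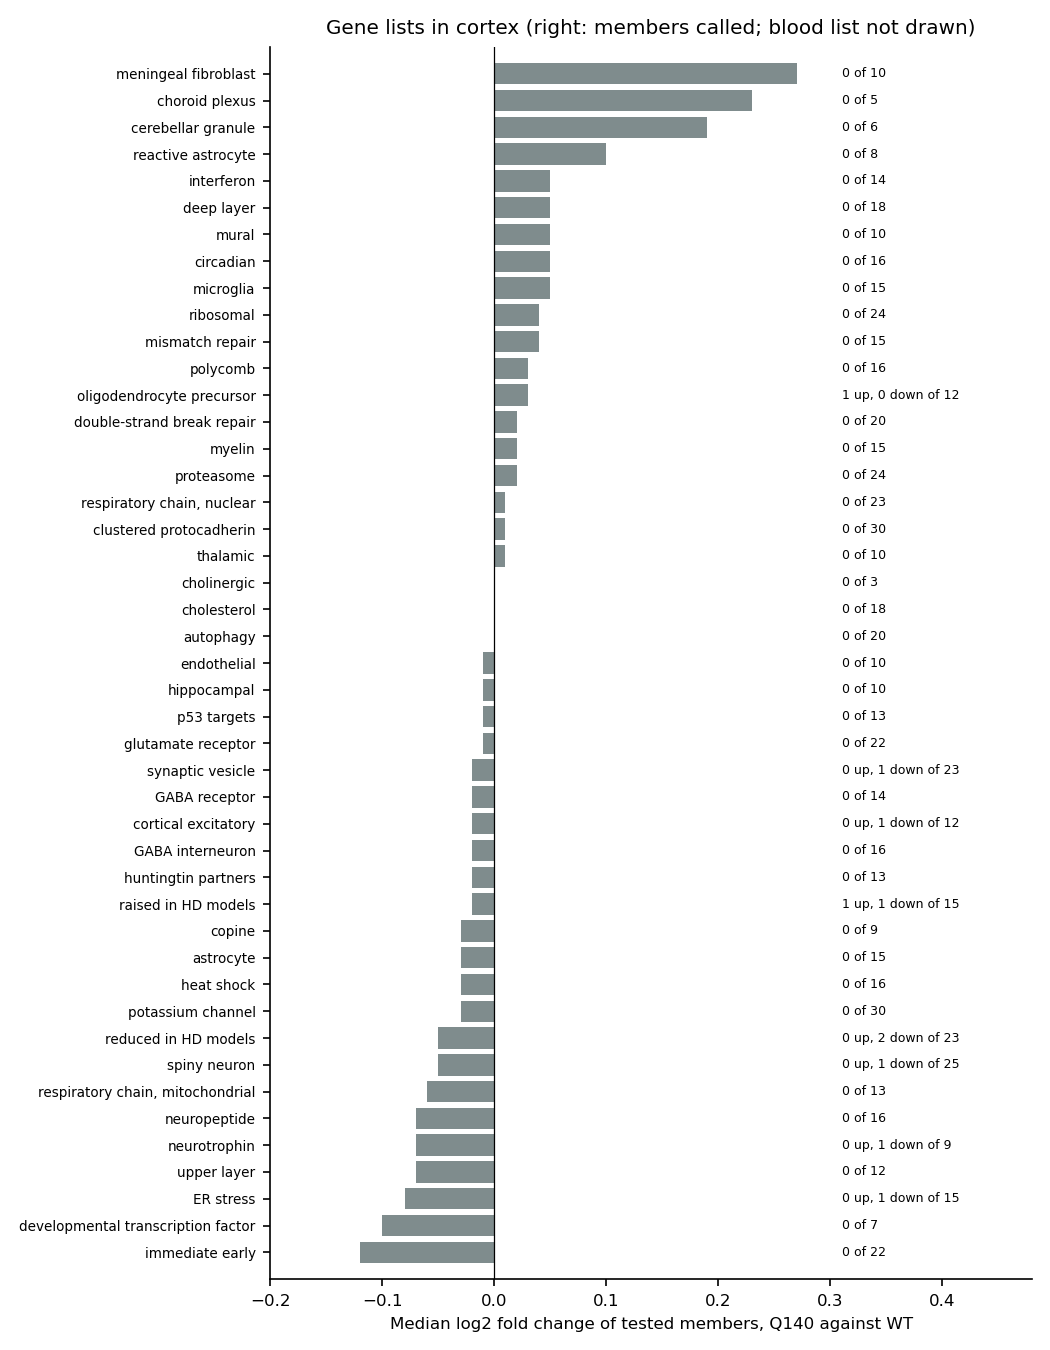
Median log2 fold change (Q140 against WT, cortex) of the tested members of 45 gene lists, as bars, with the members called given at the right; the blood list, at 1.55, is not drawn. Of the lists drawn, 8 have a called member, and the spiny neuron list has a median of -0.05.

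The level of Polq varied among the mice labelled as carrying 1 copy of it. In 4 of the 16 (Q140 Polq+/- F3, F4 and M3 and Polq+/- M3) it lay at 0.375 to 0.602 CPM, and in the other 12 at 1.12 to 1.93 CPM, so these groups are named by their label.

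The same allele was compared in mice labelled Polq+/-, which are other animals. In those cortices 61 of 18116 genes (0.337%) were called between Q140 Polq+/- and Polq+/- mice. All 63 genes of the first comparison had the same direction there, against 57.9% of all tested genes. This pair was also spread unevenly over the plate. Of its cortices, plate column 8 held only Q140 Polq+/- ones and column 6 only Polq+/- ones. The part of plate position in the shared direction was not tested. The second comparison called 21 of them, which is 33.3% of the 63 and 34.4% of the 61, and 50 had an unadjusted p under 0.05. The change was the larger of the 2 in mice with both Polq copies for 54 of the 63, which were selected on that change. The difference between the changes was called in 0 of 18116 genes by edgeR (863 at an unadjusted p under 0.05, smallest adjusted p 0.99) and in 0 by DESeq2. Without the 4 mice of lowest Polq 14 genes were called between Q140 Polq+/- and Polq+/- cortex, 7 of them among the 63, and 61 of the 63 had the same direction. The 7 were Abhd1, Gm2420, Camk2n1, Gpr153, Lingo1, Atp2b2 and Mrpl33.

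Abhd1 averaged 6.42 ± 0.536 CPM in Q140 Polq+/- cortex and 2.96 ± 1.29 CPM in Polq+/- cortex (SD, n = 8 each; log2 fold change 1.13, SE 0.124, edgeR adjusted p = 1.07e-06). The wide spread came from Polq+/- F4, at 6.1 CPM, which lay in the range of the Q140 mice, while the 7 other Polq+/- mice stood at 2.22 to 2.91 CPM. Gm2420 had 0 counts in that mouse. Summed over mice, Gm2420 had 150 counts in Q140 Polq+/- cortex and 8 in Polq+/- cortex. Camk2n1 (log2 fold change -0.23), Gpr153 (-0.35), R3hdm1 (-0.17) and Lingo1 (-0.27) were called too, with edgeR adjusted p of 0.00243, 0.00243, 0.00243 and 0.00051, and so were Enpp6 at 0.60 (0.00672) and Anln at 0.50 (0.00834). Without the 4 mice of lowest Polq, R3hdm1 (-0.16), Enpp6 (0.52) and Anln (0.45) were no longer called (edgeR adjusted p = 0.0678, 0.136 and 0.156), while Camk2n1 was at -0.24, Gpr153 at -0.35 and Lingo1 at -0.28 (adjusted p = 0.042, 0.042 and 0.031). Apod, by contrast, was at 79.3 ± 10.4 CPM in Q140 Polq+/- cortex and 78.3 ± 7.98 CPM in Polq+/- cortex (log2 fold change 0.02, adjusted p = 0.96), and Sult2b1 was at 0.02 (adjusted p = 0.924). Smoc1 at 0.09, Arhgap6 at 0.08 and Agmat at -0.06 were also near 0 there (adjusted p = 0.785, 0.762 and 0.887), and Arhgap6 and Agmat were the genes that changed sign without the 4 mice, at -0.01 and 0.02.

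**Figure D4:**
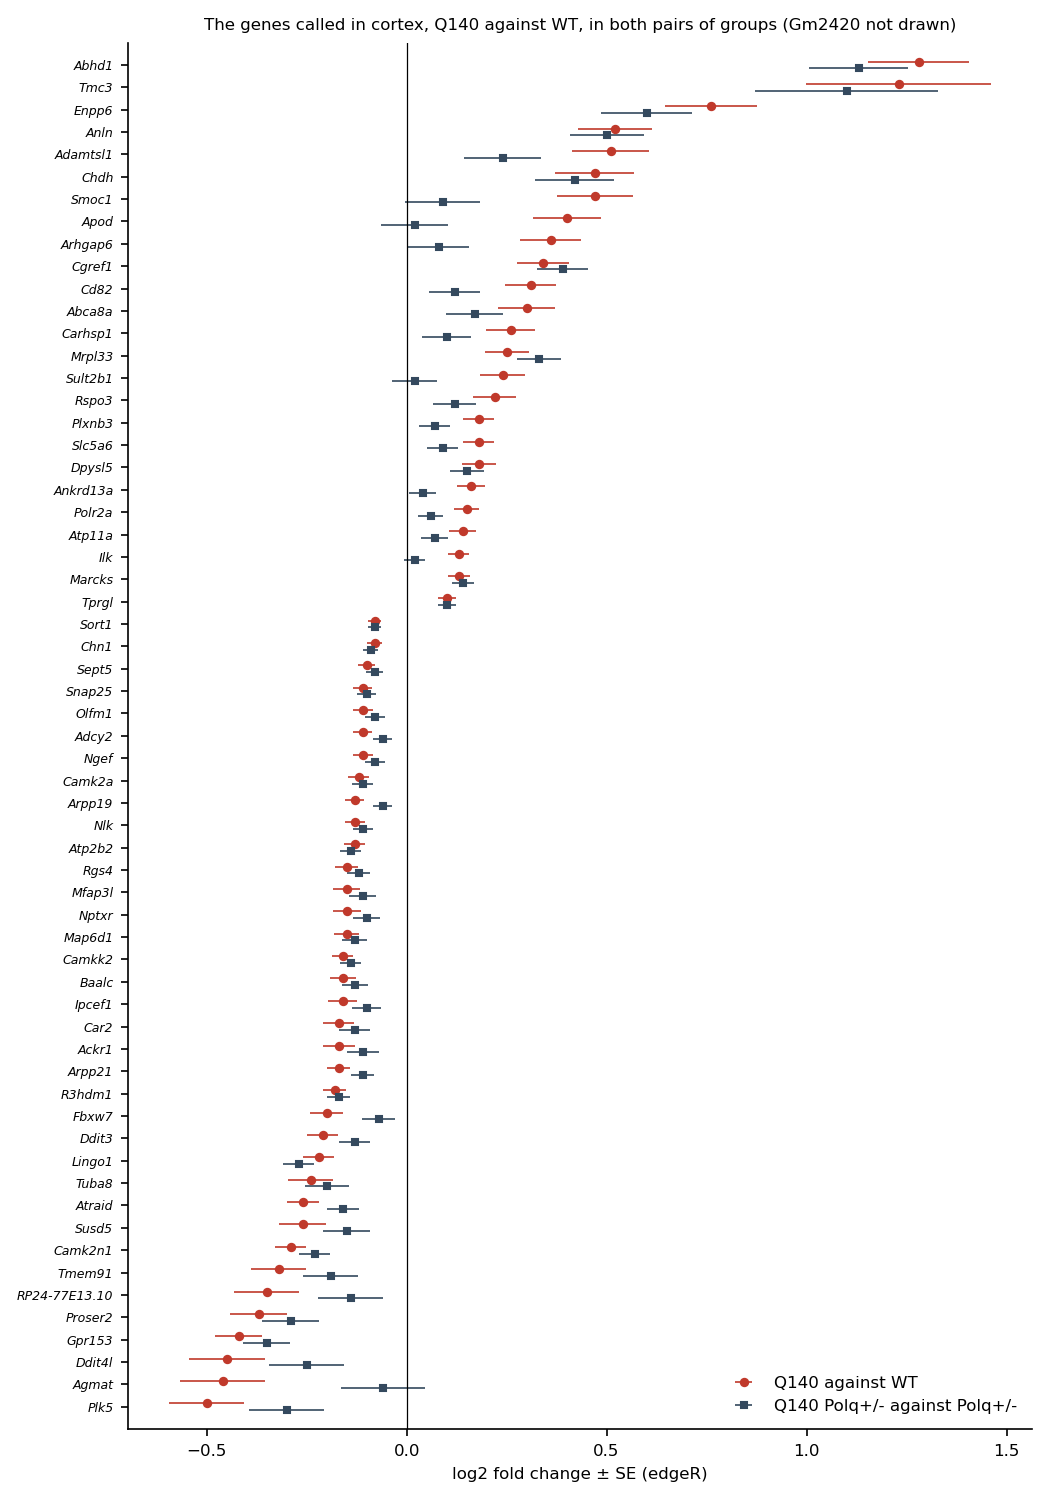
Log2 fold change with its SE of 61 of the 63 genes called in cortex, for Q140 against WT (red) and Q140 Polq+/- against Polq+/- (dark); Gm2420, at 3.26 and 4.04, is among those not drawn. All points of a gene lie on the same side of 0, and Apod and Sult2b1 lie near 0, at 0.02, in mice labelled Polq+/-.

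Both sexes showed the called genes in the same direction. All 63 had the same sign in females and males, which follows in part from their choice over both sexes, and 57 had an unadjusted p under 0.05 in each sex. As contrasts within 1 fit of both sexes, females gave 15 called genes and males 39. Among the males genotype and plate column cannot be told apart in these 2 groups, since they shared no column. The difference between the sexes was called in 1 of 18116 genes by edgeR (0.00552%), against 36 by DESeq2 and 6 without the filter on low counts. The 1 gene was the long non-coding RNA gene Gm17281 (chr2:91250743-91255995), which was not among the 63. In males it averaged 1.34 CPM in Q140 cortex and 0.642 CPM in WT cortex, and in females 0.712 CPM in Q140 cortex and 1.09 CPM in WT cortex. The gene overlaps Pacsin3 on the other strand. The change was 1.06 in males and -0.62 in females on the log2 scale, a difference of 1.69 (SE 0.269, edgeR adjusted p = 0.00537), to which the separate plate columns of the males also apply. The Q140 and WT values did not overlap in males (1.05 to 1.68 CPM in Q140 cortex and 0.588 to 0.696 CPM in WT cortex) or in females (0.477 to 0.81 CPM in Q140 cortex and 0.937 to 1.33 CPM in WT cortex).

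The striatum of the same mice changed far more widely. There 5869 of 18270 genes (32.1%) were called between Q140 and WT mice. Of the 63 genes called in cortex, 41 were called in striatum as well, 38 in the same direction and 3 in the other, and 52 had the same sign against 56.3% of all genes. The tissues came from the same animals, so these shares rest on the same mice. A test of the difference between tissues, with the mouse as a block, called 4025 of 19091 genes (21.1%) and 36 of the 63. Of those 36 the change was the larger in striatum and of the same sign for 18, larger in cortex for 14, and larger in striatum with the opposite sign for 4.

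The falls in Ddit4l, Plk5, Rgs4 and Arpp21 were small beside those in striatum. Ddit4l had a log2 fold change of -0.45 in cortex and -2.16 in striatum, a difference of 1.72 (SE 0.142, edgeR adjusted p = 1.58e-10). Plk5 differed by 1.22 (SE 0.0958, adjusted p = 1.01e-11), Arpp21 by 0.65 (SE 0.0489, adjusted p = 2.54e-13) and Rgs4 by 0.60 (SE 0.0521, adjusted p = 2.21e-11). R3hdm1, the other host of miR-128, changed by -0.18 in cortex and -0.19 in striatum (difference 0.01, SE 0.0646, adjusted p = 0.936).

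Others changed more in cortex or in the opposite direction. Abhd1 had a log2 fold change of 1.28 in cortex and 0.83 in striatum (difference 0.46, SE 0.102, edgeR adjusted p = 0.000782), and Enpp6 had 0.76 and 0.42 (difference 0.34, SE 0.124, adjusted p = 0.0463). Lingo1 was at -0.22 in cortex and 0.01 in striatum (difference -0.23, SE 0.0492, adjusted p = 0.000576), and Cgref1 at 0.34 in cortex and -0.10 in striatum (difference 0.44, SE 0.0735, adjusted p = 1.19e-05). Ipcef1, which binds a regulator of Arf6, fell by 0.16 in cortex and was higher by 1.02 in striatum, and Tmem91 fell by 0.32 in cortex and was higher by 0.36 in striatum (adjusted p of the difference 2.57e-10 and 5.81e-09). Ipcef1 averaged 124 CPM in Q140 and 138 CPM in WT cortex, but only 9.07 and 4.45 CPM in striatum. With the plate column as a term its cortical fall was not called (edgeR adjusted p = 0.142). It was called in 9 of the 16 fits that left out 1 library, and it overlaps Oprm1 on the other strand. Gpr153 had -0.42 in cortex and -0.48 in striatum (difference 0.06, SE 0.1, adjusted p = 0.716), and Tmc3 had 1.23 in cortex and 1.52 in striatum (difference -0.29, SE 0.303, adjusted p = 0.566), which does not show that the tissues changed alike.

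**Figure D5:**
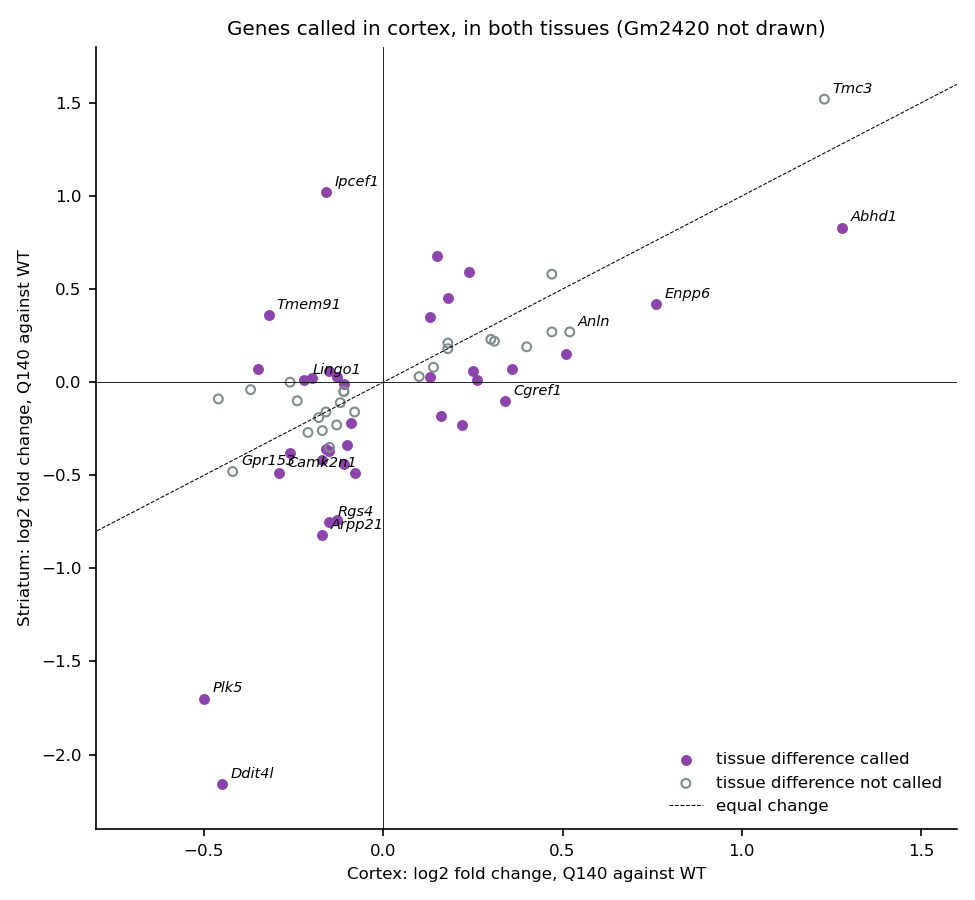
Log2 fold change (Q140 against WT) of 62 genes called in cortex, in cortex (horizontal axis) and in striatum (vertical axis); filled points had a called difference between tissues and the dashed line marks equal change. Ddit4l and Plk5 lie far below the line, at -2.16 and -1.70 in striatum, and Ipcef1 lies above 0 in striatum at 1.02.

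Some striatal libraries differed from their group. WT M3 had striatal Htt at 137 CPM, against 209 to 220 CPM in the other WT mice, and WT M2 had striatal Cbln3 at 60.7 CPM, against 0.0821 to 0.331 CPM. Without these 2 mice and Polq+/- F3, whose striatal library also stood apart, 4072 genes had a called difference between tissues, 34 of the 63 among them. Of the 36 found with all mice, 30 were called again, and Camk2n1, Atraid, Mrpl33 and Rspo3 were among those that were not (adjusted p = 0.072, 0.106, 0.0583 and 0.067).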

How the data were processed

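RNA was extracted with a Qiagen RNeasy kit and sequenced from Illumina TruSeq stranded libraries, per the labels' protocols. Reads were handled with STAR 2.7.5c, SAMtools 1.10 and HTSeq 0.12.3 on GRCm38 (mm10), per the submitters' processing notes. Neither the annotation release nor the setting for strand is given in the sources used here. Tables deposited by the authors hold raw counts per gene and FPKM values, as the file headers name them, with 0 columns of other samples. GENCODE M21 held 48435 of the 48795 gene IDs, and 27 names turned into dates were restored from it.

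Cortical counts (32 libraries, 4 genotypes) were fitted together in edgeR 4.0.16 (R 4.3.3; quasi-likelihood with robust estimation, TMM, genes filtered by filterByExpr on genotype, with a sex term), with Benjamini-Hochberg adjustment over all genes tested and calls at 0.05. The difference between tissues used a fit of all 64 libraries blocked by mouse, and that between sexes 4 females and 4 males per group. The scripts were tested on simulated data. Between any 2 of the 16 libraries, counts varied at least 2.78 times as much as sampling noise gives.

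The members, lists and tests were chosen with earlier results of these data known. Named were Htt, Polq, the 15 largest rises and 15 largest falls with an assigned name and mean CPM of at least 1, the 10 smallest p, called genes under 1 CPM, called genes within 10 Mb of Htt, and up to 4 members of each list with the smallest p; some of these are not reported here. Preb, Camk2b, Camk2n2, Atp2b2, Rgs4 and Gm17281 were chosen after their values were seen. Alternatives were DESeq2 1.42.0, its size factors, library totals, limma 3.58.1 (voom, or trend on log2 of FPKM plus 0.1 or 1), no filter, only the 2 groups, no sex term and a replicate block. Others were the plate column, a surrogate variable (sva 3.50.0), mice blocked by name prefix, a looser threshold of 0.1, contrasts within each sex and leaving out each library. Leaving out the 4 mice of lowest Polq, or the 3 whose striatal libraries stood apart, was chosen after seeing the data.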

Additional observations from a re-analysis of the deposited data

Results flagged for a closer look

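In 8 of 178 groups of 8 mice examined, 1 mouse lay far from the rest of its group, which chance gives in about 1 of 20 groups. Abhd1 was at 6.1 CPM in Polq+/- F4, against 2.22 to 2.91 CPM in the other Polq+/- mice. WT F2 stood out for Plk5 (39.1 CPM, others 23.1 to 28.4), Ugt8a (22.1 CPM, others 25.4 to 27.9) and Kcnj9 (291 CPM, others at most 263). WT F4 was high for Tmc3 (0.823 CPM, others 0.212 to 0.414) and WT F3 for Grin2a (278 CPM, others 227 to 237). Among the Q140 mice, F2 was high for Ddit4l (40 CPM, others 34.4 to 36.6) and F3 low for Zdhhc17 (132 CPM, others 139 to 144).

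The change in Gm17281 differed between males and females by 1.69 on the log2 scale (edgeR adjusted p = 0.00537), and the Q140 and WT males shared no plate column.

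Of the named genes that were called in cortex, 21 had a called difference between tissues, given here as the log2 change in cortex minus that in striatum. For falls that were deeper in striatum the difference was 1.72 for Ddit4l, 1.22 for Plk5, 0.65 for Arpp21, 0.60 for Rgs4, 0.20 for Camk2n1, 0.20 for Camkk2 and 0.13 for Atraid. For falls in cortex with a striatal value near or above 0 it was -0.21 for Fbxw7, -0.23 for Lingo1, -0.67 for Tmem91 and -1.18 for Ipcef1. For rises it was 0.46 for Abhd1, 0.45 for Rspo3, 0.44 for Cgref1, 0.36 for Adamtsl1, 0.34 for Enpp6, 0.29 for Arhgap6, 0.26 for Carhsp1 and 0.19 for Mrpl33, above the striatal change, and -0.26 for Dpysl5 and -0.34 for Sult2b1, below it. Of the named genes that were not called in cortex, 17 had a called difference between tissues. It was 1.87 for Cpne9, 0.83 for Slc22a6, 0.81 for Drd1, 0.55 for Homer1, 0.55 for Ppp1r1b, 0.48 for Gabrd, 0.46 for Ctgf, 0.44 for Itpr1, 0.32 for Camk2b, 0.25 for Unc13a, 0.25 for Nrgn, 0.14 for Pacsin1 and 0.10 for Parp1, and -0.17 for Gabbr2, -0.18 for Kcnj9, -0.39 for Lamp5 and -0.89 for Lipg.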

How the results depend on the processing

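For Q140 against WT in cortex the 63 calls became 151 with DESeq2, 128 at an adjusted p under 0.1 and 25 with the plate column. The contrast within females gave 15 calls and that within males 39. When 1 library was left out the calls ranged from 23 (without Q140 M1) to 82 (without Q140 F1). The other alternatives gave 49 to 74, the upper value with a replicate block. Same-numbered Q140 and WT mice deviated from their group means with correlations of -0.074 to 0.143, and 3 of 8 pairs were closest to their own number, so the numbers were not taken to pair the mice. For Q140 Polq+/- against Polq+/- the 61 calls became 179 with DESeq2, 70 with a replicate block and 14 without the 4 mice of lowest Polq. The difference with the Polq label stayed at 0 with DESeq2, without a filter and with a replicate block. The difference between sexes had 1 call, and 36 with DESeq2, 6 without a filter and 2 with a replicate block. That between tissues had 3952 with limma voom, 3469 without a filter and 4072 without the 3 mice whose striatal libraries stood apart. No named gene changed direction while called, 16 of the 63 were called in all 13 planned refits and the added one, and 4 of 644 list medians moved by more than the spread among WT mice. The causes of these shifts were not tested. The median SE of a log2 fold change was 0.0556, which limits what small changes could be called.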
